A study of Mus musculus with 4 samples.

Results

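The 38 genes described here are immediate early genes and close relatives, listed by gene symbol with earlier results of these data known. All 38 were measured, among 18193 genes in all, and each was read from its brightest probe set by mean over 4 arrays. The arrays are Affymetrix mouse arrays of total RNA from CD8 T cells, which had been sorted out of spleens of B6 wild-type mice with no treatment listed. The Ly49+ group held 2 arrays of cells sorted as CD44+CD122+Ly49+, labelled CD8+ Treg, and the Ly49- group 2 arrays of cells sorted as CD44+CD122+Ly49-, labelled as conventional memory cells. Within each group the arrays are numbered replicate 1 and replicate 2. The labels give neither the age nor the number of mice, and do not say whether a shared number marks shared mice, a shared sort or a shared day, so p-values measure the spread between these samples alone, which may be technical.

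Immediate early genes are transcribed within minutes of a stimulus, from promoters that need no newly made protein to fire. In T cells the antigen receptor reaches them through calcium and the MAP kinases ERK, JNK and p38, which act on SRF with its TCF partners, on CREB and on AP-1 factors already present. Many of their products are short-lived transcription factors (FOS, JUN, EGR and NR4A proteins), and others are brakes, such as phosphatases that switch off the MAP kinases and proteins that promote the decay of short-lived mRNAs. The set was described first by replicate number within each group and then by group within each replicate number.

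The core promoters of 6 members are shown: the NR4A family, whose members differ in the results, Fosb and Atf3, which had large differences between replicate numbers, and Dusp1, which carries the full cAMP response element (CRE), the site bound by CREB. Each is the run of 250 bases before the gene start, 5′ to 3′ on the strand of the gene, from RefSeq (GRCm38.p6). Capitals mark the CRE half-site TGACG on either strand, and overlapping sites are run together. Nr4a1 lies at chr15:101266596-101266845 (plus strand), Nr4a2 at chr2:57124004-57124253 (minus), Nr4a3 at chr4:48045055-48045304 (plus), Fosb at chr7:19310046-19310295 (minus), Atf3 at chr1:191183334-191183583 (minus) and Dusp1 at chr17:26508473-26508722 (minus).
Nr4a1: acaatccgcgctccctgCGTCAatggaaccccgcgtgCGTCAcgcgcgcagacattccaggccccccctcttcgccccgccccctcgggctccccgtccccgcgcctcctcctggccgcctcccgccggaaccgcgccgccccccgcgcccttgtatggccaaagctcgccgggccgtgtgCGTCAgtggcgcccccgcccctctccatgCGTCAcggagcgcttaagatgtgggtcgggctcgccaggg
Nr4a2: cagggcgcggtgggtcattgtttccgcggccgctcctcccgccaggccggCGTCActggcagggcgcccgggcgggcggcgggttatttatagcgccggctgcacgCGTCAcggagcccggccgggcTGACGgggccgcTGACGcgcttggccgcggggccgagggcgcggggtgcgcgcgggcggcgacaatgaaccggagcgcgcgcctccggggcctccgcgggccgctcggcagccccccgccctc
Nr4a3: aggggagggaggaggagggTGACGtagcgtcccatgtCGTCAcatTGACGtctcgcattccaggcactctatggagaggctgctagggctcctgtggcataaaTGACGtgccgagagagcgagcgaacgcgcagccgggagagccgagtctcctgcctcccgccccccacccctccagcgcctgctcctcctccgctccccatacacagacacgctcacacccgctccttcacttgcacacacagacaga
Fosb: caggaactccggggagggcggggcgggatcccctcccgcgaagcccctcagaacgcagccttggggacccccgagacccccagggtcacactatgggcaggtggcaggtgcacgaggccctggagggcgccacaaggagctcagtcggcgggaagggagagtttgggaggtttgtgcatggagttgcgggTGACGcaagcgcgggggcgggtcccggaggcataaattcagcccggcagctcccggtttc
Atf3: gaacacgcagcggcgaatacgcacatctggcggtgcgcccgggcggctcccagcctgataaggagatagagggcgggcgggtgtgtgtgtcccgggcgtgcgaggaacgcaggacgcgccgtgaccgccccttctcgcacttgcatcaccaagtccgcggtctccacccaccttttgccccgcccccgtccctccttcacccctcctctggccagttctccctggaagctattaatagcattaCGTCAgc
Dusp1: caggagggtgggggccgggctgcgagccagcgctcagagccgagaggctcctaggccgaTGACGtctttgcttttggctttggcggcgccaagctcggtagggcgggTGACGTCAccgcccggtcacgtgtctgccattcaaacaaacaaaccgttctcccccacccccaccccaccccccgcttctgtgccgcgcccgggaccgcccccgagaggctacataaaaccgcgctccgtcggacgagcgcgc

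The half-site occurred 4 times in each of the NR4A windows and once each in those of Fosb and Atf3. Promoters of 28 members were in the RefSeq table, and 16 of them (57.1%) held a half-site in at least 1 window, against 19.8% of all 27025 genes in the table. The full element TGACGTCA, which contains the half-site on both strands, was found in 4 of the 28 (Btg2, Dusp1, Maff and Ppp1r15a) and in 1.77% of all genes. The EGR site GCGTGGGCG was in 1 of 28 (Maff) against 0.622%, the AP-1 site TGACTCA in 1 of 28 (Csrnp1) against 5.16%, and the CArG box, where SRF binds, in 2 of 28 (Egr2 and Zfp36) against 1.62%, all on both strands. A match is a stretch of letters in this window and not a measured binding site.

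Array medians lay between 188.5 and 190.4 and the pairwise Pearson correlation across all genes between 0.997 and 0.999. The sorted cells read as CD8 T cells, with Cd8a between 18009 and 19070 and Cd4 between 133 and 148. Highest among the bacterial controls with no spiked transcript was a reading of 70.3, and no member had a mean below it. One array stood apart in a technical control: an older probe set for the spiked bacterial transcript bioB read 702 on the Ly49- replicate 1 array and 2750 to 3084 on the others, while the newer bioB probe set read 3111 there and 2833 to 3022 elsewhere. The replicate difference within Ly49+ cells does not use that array. The folds, standard errors and p-values of the replicate test below use all arrays, that one included.

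The first comparison asks how far arrays of the same cell type differ between replicate numbers. Most of the immediate early genes read higher on the replicate 1 arrays. Of 38 members, 29 (76.3%) were lower on the replicate 2 arrays at a limma adjusted p under 0.05, none was higher (0 also at an unadjusted p under 0.05) and 9 did not pass. Of all 18193 genes 1.03% passed, 0.973% lower and 0.0605% higher. The folds of the 29, as the mean of both cell types, ran from 1.14 to 3.91, with adjusted p between 8.9e-11 and 0.037. This test sets each difference against how far Ly49+ and Ly49- cells disagree in it, with 1 residual degree of freedom and 14.3 prior ones. Its p-values thus do not measure spread among repeats of a replicate number. Where a number marks a shared sort or day, there is 1 such unit on each side. Nr4a1, Fosb, Egr1 and Nr4a2 had the 4 smallest p-values of all genes, and 6 members were among the smallest 10. Fewer cells expressing a gene and less of its RNA per cell cannot be told apart in such bulk samples.

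Within Ly49+ cells all 38 members were lower on replicate 2, with a median log2 difference of -0.44, and within Ly49- cells 35 were lower, with a median of -0.47, while Fosl2, Nr4a3 and Myc read higher there. Over all genes the medians were 0.00 and -0.00, with 49.3% and 50.5% lower. Both replicate 1 arrays read above both replicate 2 arrays for 33 members (86.8%), against 15.4% of all genes. At least a 2-fold lower reading on replicate 2 in both cell types was found for 5 members (Fosb, Atf3, Egr1, Nr4a1 and Nr4a2) and for 0.0824% of all genes. Across the 38 members the replicate differences of the cell types, which share no array, had a Pearson correlation of 0.88, against 0.25 across all genes, given as a description since genes are not independent.

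**Figure D1:**
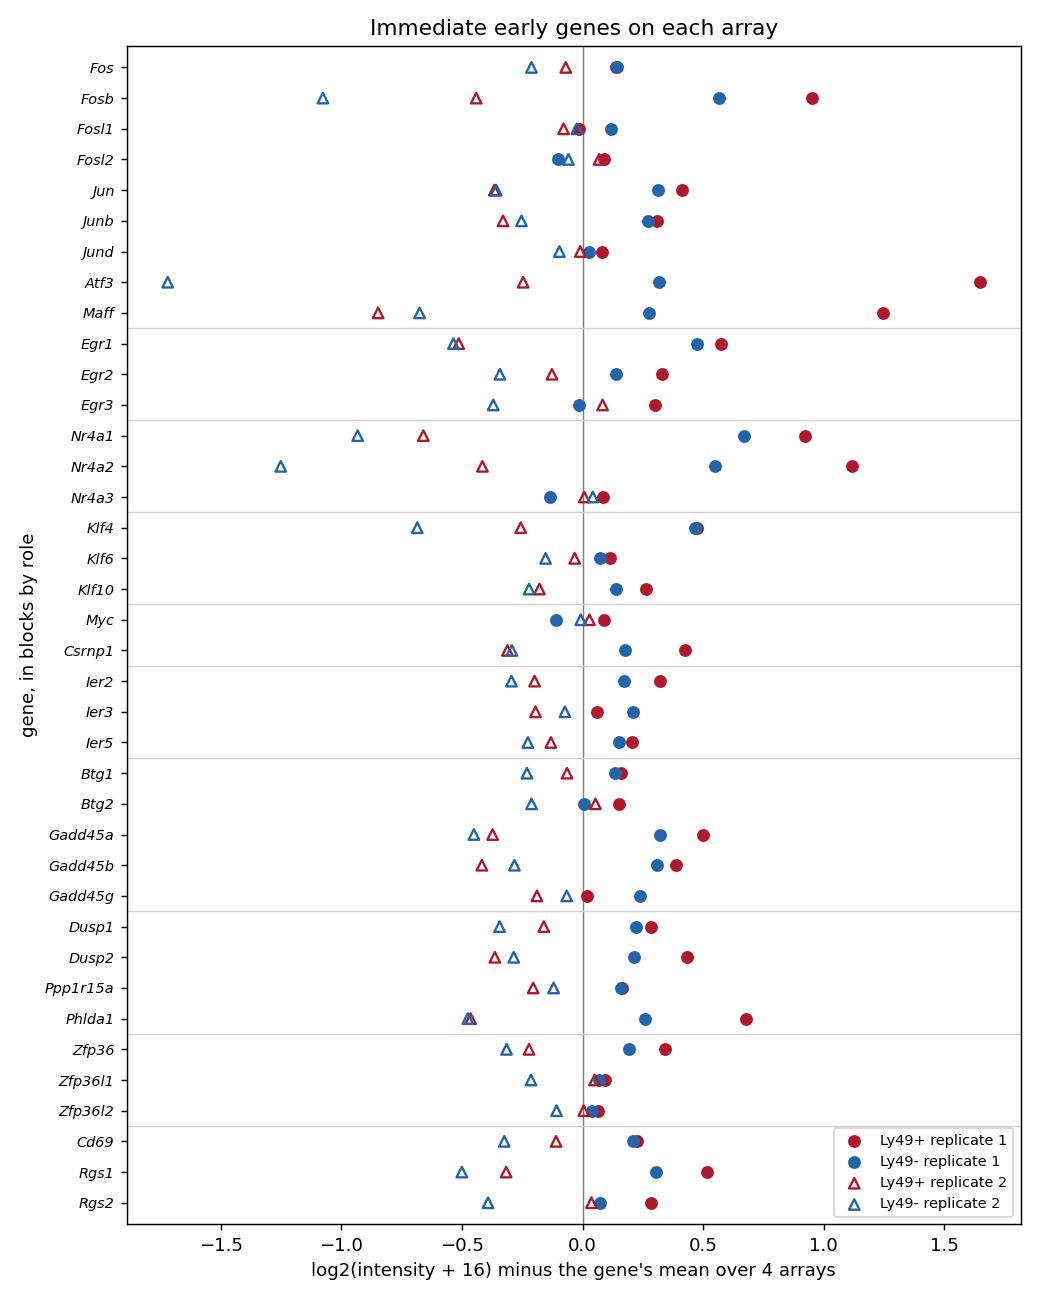
Each row is 1 member, in blocks by role, and the horizontal axis is log2(intensity + 16) minus the mean of the gene over the 4 arrays (filled circles replicate 1, open triangles replicate 2, red Ly49+, blue Ly49-). The circles lie to the right of the triangles with no overlap for 33 of 38 genes, and the spread is widest for Atf3, Maff, Fosb, Nr4a1 and Nr4a2.

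**Figure D2:**
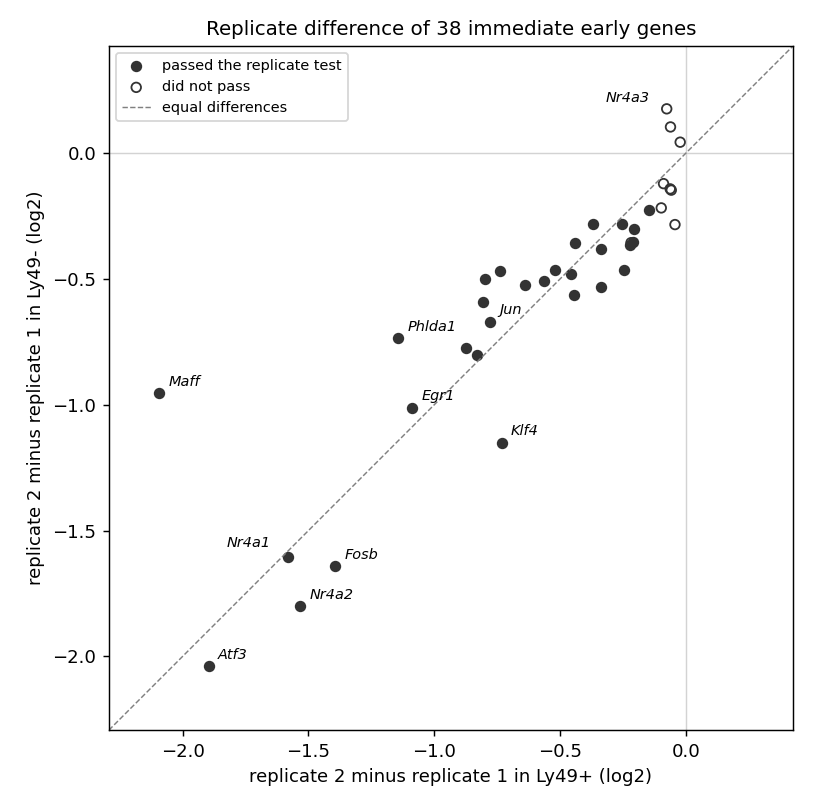
Each point is 1 member, with its replicate 2 minus replicate 1 difference (log2) in Ly49+ cells on the horizontal and in Ly49- cells on the vertical axis; filled points passed the replicate test and the dashed line marks equal differences. Points run along the line from near 0 to about Atf3 (-1.89 and -2.04), with Maff off it (-2.09 and -0.95).

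The call depended on how the spread was estimated. Without letting the spread vary with brightness 5 members passed (Fosb, Atf3, Egr1, Nr4a1 and Nr4a2, of 16 genes lower in all), and with the replicate number as the only term 4 passed (Jun, Egr1, Nr4a1 and Rgs1, of 15). With 1 array left out and the replicate number as the only term, added after the data were seen, 8 passed when Ly49+ replicate 1 was dropped and 4 when Ly49+ replicate 2 was. Dropping Ly49- replicate 1 left 15, and dropping Ly49- replicate 2 left 3.

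AP-1 is a dimer of FOS and JUN family proteins, joined here by the related factors ATF3 and MAFF. Of these 9 genes 6 were lower on replicate 2. Atf3, a stress-induced repressor, had the largest difference in this direction of any of the 18193 genes, each read from its brightest probe set. It read 1249 in Ly49+ and 487 in Ly49- cells on the replicate 1 arrays and 324 and 106 on the replicate 2 arrays. The replicate 1 arrays were thus 3.91-fold higher (log2 difference -1.97 ± 0.11 SE for replicate 2 minus replicate 1, adjusted p = 1.2e-08), with no overlap. Fosb, a FOS paralogue, read 10635 and 8129 on replicate 1 and 4038 and 2593 on replicate 2 (Ly49+ then Ly49-). It was 2.86-fold higher on replicate 1 (-1.52 ± 0.06, adjusted p = 1.7e-10), again with both arrays of one number apart from those of the other.

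Maff, a small MAF protein with no activation domain, read 677 and 338 against 146 and 167, and was 2.88-fold higher on replicate 1 (-1.52 ± 0.18, adjusted p = 1.3e-04). Its difference was -2.09 in Ly49+ and -0.95 in Ly49- cells, the widest gap between cell types of any member, and with a robust estimate of the spread it did not pass. Jun read 15383 and 14349 against 8968 and 9016 (1.65-fold, adjusted p = 1.8e-08), and Junb 3215 and 3131 against 2057 and 2170 (-0.58 ± 0.06, adjusted p = 1.3e-05). For both genes the cell types lay close together and the replicate numbers apart.

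Fos itself, the prototype of the class, differed little: it read 23898 and 23921 against 20668 and 18726, 1.22-fold higher on replicate 1 (-0.28 ± 0.04, adjusted p = 5.3e-04). Its mean intensity was at percentile 99.5 of all genes, and whether readings this bright understate a difference was not tested. Jund, a JUN protein present without stimulation, was at 23907 and 23029 against 22479 and 21172 and did not pass (adjusted p = 0.29). Fosl2 read 2731 and 2387 against 2688 and 2461 (adjusted p = 0.99), and Fosl1 lay near the background at 84.8 to 99.6 on all arrays (adjusted p = 0.91). The AP-1 family thus ran from differences of more than 2-fold (Atf3, Maff and Fosb) to members that did not pass.

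EGR proteins are zinc-finger factors induced through ERK and SRF. Egr1 read 15121 in Ly49+ and 14129 in Ly49- cells on replicate 1 and 7109 and 7003 on replicate 2, a 2.07-fold difference (-1.05 ± 0.04, adjusted p = 2.4e-10). The cell types nearly coincided while the replicate numbers stood apart, and among the 29 members it was the one that passed in all 13 alternative fits. Egr2, a restraint on T cell activation together with Egr3, read 2292 and 2003 against 1664 and 1431 (1.38-fold, adjusted p = 3.4e-04). Egr3 overlapped, at 1481 and 1187 against 1271 and 924 (adjusted p = 0.10).

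NR4A proteins are orphan nuclear receptors, and Nr4a1 (Nur77) is widely used as a reporter of antigen receptor signalling. Nr4a1 read 5683 and 4770 against 1887 and 1559, 3.02-fold higher on replicate 1 (-1.59 ± 0.05, adjusted p = 8.9e-11). Its difference was -1.58 in Ly49+ and -1.60 in Ly49- cells. Nr4a2 read 5611 and 3779 against 1929 and 1073, a 3.18-fold difference (-1.67 ± 0.07, adjusted p = 2.4e-10). Its chosen probe set may also detect other transcripts, and the next brightest, which is not of that kind, gave -1.89. Further ones gave -1.68 and -1.17, and the dimmest, with means of 175 and 145, gave -0.06 and -0.23. Nr4a3, the third member of the family, did not follow on its chosen probe set. It read 2448 and 2104 against 2321 and 2379 (0.05 ± 0.07, adjusted p = 0.93). Its promoter above carries as many half-sites as those of Nr4a1 and Nr4a2, and whether these sites bear on the readings was not tested. The other probe sets of Nr4a3 were dim. The brighter of them had a mean of 87.6 and differed by -0.17, and the dimmer, at 20.8, lay below the highest bacterial control. The reading of Nr4a3 thus rests on its brightest probe set alone.

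**Figure D3:**
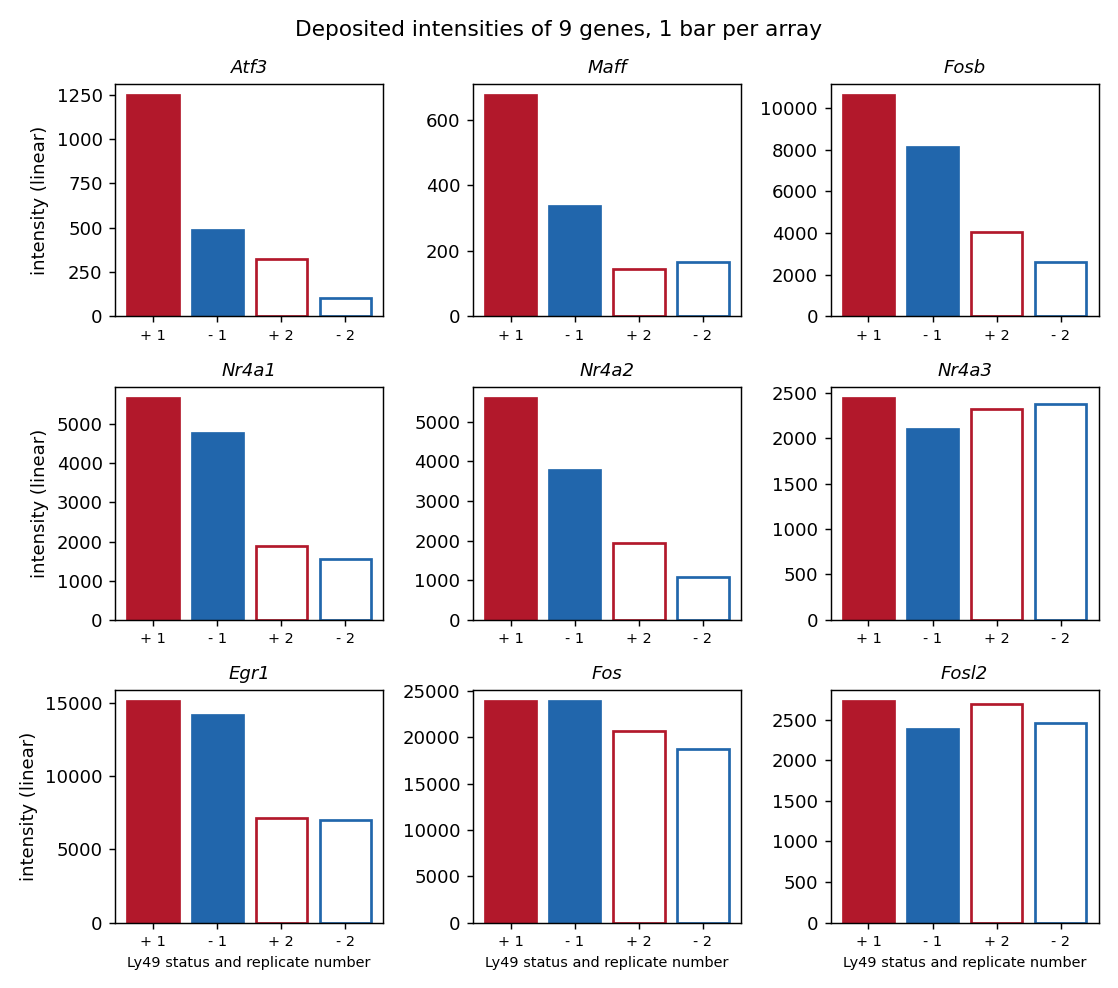
Bars give the deposited linear intensity of 9 genes on each array, 1 bar per array (filled replicate 1, open replicate 2, red Ly49+, blue Ly49-), each panel with its own axis from 0. Atf3, Fosb, Nr4a1, Nr4a2 and Egr1 were at least 2-fold lower on replicate 2 in both cell types, whereas the replicate numbers overlap for Nr4a3 and Fosl2.

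The KLF zinc-finger factors were all lower on replicate 2. Klf4, an inhibitor of T cell proliferation, read 9174 and 9103 against 5514 and 4091 (1.92-fold, adjusted p = 4.1e-07). Its other probe set gave a larger difference of -2.31, at 5944 and 4587 against 1184 and 920, so the size of the difference depends on the probe set while its direction does not. Klf10, induced by TGF-beta, differed 1.32-fold (adjusted p = 1.9e-04) and Klf6 1.14-fold (adjusted p = 0.015). The other probe sets of Klf6, all less bright, gave larger differences, from -0.32 to -0.71. Csrnp1, a nuclear protein induced by AXIN1, read 5282 and 4439 against 3159 and 3200 (1.52-fold, adjusted p = 1.5e-05). Myc, which drives the growth of activated T cells, read 10842 and 9430 against 10392 and 10137 and did not pass (0.02 ± 0.04, adjusted p = 0.97).

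All 3 IER genes, named for their immediate early response, were lower on replicate 2. Ier2 differed 1.41-fold, at 4717 and 4248 against 3283 and 3070 (adjusted p = 2.0e-05), Ier5 1.28-fold (adjusted p = 4.4e-05) and Ier3 1.20-fold (adjusted p = 0.037). Among the growth-restraining BTG and GADD45 genes 4 of 5 were lower. Gadd45a read 3491 and 3083 against 1898 and 1798 (1.77-fold, adjusted p = 2.6e-07), Gadd45b 3048 and 2886 against 1736 and 1907 (1.62-fold, adjusted p = 5.3e-06). Gadd45g (1.19-fold, adjusted p = 0.037) and Btg1 (1.23-fold, adjusted p = 3.9e-04) differed less. The other probe sets of Btg1 gave differences of -0.06 and -0.07, and the later one read 13966 on Ly49+ replicate 1 and 14617 on Ly49+ replicate 2. Averaged over its probe sets Btg1 differed by -0.14 and did not pass (adjusted p = 0.40). Btg2 missed the threshold at 10809 and 9772 against 10099 and 8402 (adjusted p = 0.14).

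Feedback regulators of signalling were lower on replicate 2 as well, 4 of 4. Dusp1, the phosphatase that inactivates p38 and JNK, read 22288 and 21371 against 16391 and 14433 (1.42-fold, adjusted p = 7.0e-07). Dusp2, its ERK-directed relative in lymphocytes, read 8116 and 6958 against 4658 and 4919 (1.57-fold, adjusted p = 5.2e-06). Phlda1, induced by T cell receptor signalling, read 2372 and 1771 against 1065 and 1056 (1.92-fold, adjusted p = 4.9e-06). Ppp1r15a, which restores translation after stress by dephosphorylating eIF2-alpha, differed 1.25-fold (adjusted p = 1.9e-04).

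Of the ZFP36 proteins, which bind AU-rich mRNA and speed its decay, Zfp36 (tristetraprolin) was lower on replicate 2, at 15123 and 13652 against 10224 and 9584 (1.45-fold, adjusted p = 3.6e-07). Zfp36l1 (adjusted p = 0.23) and Zfp36l2 (adjusted p = 0.39) did not pass. Cd69, the early activation antigen that holds T cells in tissue by removing S1PR1 from the surface, read 12392 and 12232 against 9814 and 8452 (1.35-fold, adjusted p = 3.4e-05). Rgs1, a brake on chemokine receptor signalling, read 13057 and 11275 against 7331 and 6453 (1.76-fold, adjusted p = 4.0e-09). Rgs2, of the same family, differed 1.28-fold (adjusted p = 9.1e-04). Both replicate 1 arrays lay above both replicate 2 arrays for all 3 of these genes.

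Other probe sets of the same genes could be compared for part of the set. Of the 38 members 20 had 1 probe set and 18 had several. The 29 members had 21 further probe sets that read at or above the highest bacterial control. By sign alone, with no threshold, 20 of these were lower on replicate 2. Of the 20, 10 differed by more and the others by less than the probe set chosen for the gene. The exception was a probe set of Csrnp1 with a mean of 90.3, which differed by 0.11. By sign 49.3% of all genes were lower within Ly49+ and 50.5% within Ly49- cells, on their brightest probe sets. The 29 genes had passed on these same arrays, so the count is no separate evidence. When the probe sets of each gene were averaged, 25 members were lower: Csrnp1, Ier3, Ier5, Btg1 and Gadd45g no longer passed and Btg2 did.

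Related genes were taken from lists that do not overlap the members. The lists were chosen with earlier results of these data known and read on the same arrays, so their counts are no separate evidence. Of 33 other rapidly induced genes, all measured, 17 were lower on replicate 2 and none was higher, against 0.973% and 0.0605% of all genes. Plk2, a stress-responsive kinase, read 849.6 and 536 against 220 and 183 (3.19-fold, adjusted p = 2.6e-07), and Odc1, the first enzyme of polyamine synthesis, 14417 and 12656 against 5567 and 5945 (2.34-fold, adjusted p = 1.2e-09). Tnfaip3, which encodes the NF-kappaB inhibitor A20, differed 1.62-fold (adjusted p = 4.2e-08) and Gem, a small GTPase, 1.84-fold (adjusted p = 1.6e-06). Of 16 T cell activation targets 6 were lower. The 4 with the smallest p were cytokines and chemokines of stimulated CD8 cells: Ifng (2.22-fold, adjusted p = 7.0e-08), Ccl4 (1.70-fold, 2.7e-07), Tnf (1.80-fold, 7.8e-06) and Ccl3 (1.39-fold, 3.6e-05).

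Regulators upstream of the members did not pass in 3 lists. By limma none of 8 measured SRF, TCF and EGR co-regulators and none of 12 MAP kinase cascade genes passed the replicate test (0 and 0 at an unadjusted p under 0.05). None of 8 calcium and NFAT regulators passed either (1 at an unadjusted p under 0.05, Rcan2, which read below the highest bacterial control). Of 18 AP-1, ATF, MAF and CREB genes outside the members 2 were lower, Atf4 (1.16-fold) and Mafk (1.22-fold). Of 12 other dual-specificity phosphatases 2 were lower, Dusp5 (1.58-fold) and Dusp6 (1.29-fold), both of which act on ERK. Of 12 heat shock chaperones 5 were lower, with the smallest p for Hspa5 (1.19-fold, adjusted p = 0.0013), the chaperone of the endoplasmic reticulum, and a log2 difference of -0.58 for Hspa1a (adjusted p = 0.0037), the inducible HSP70.

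**Figure D4:**
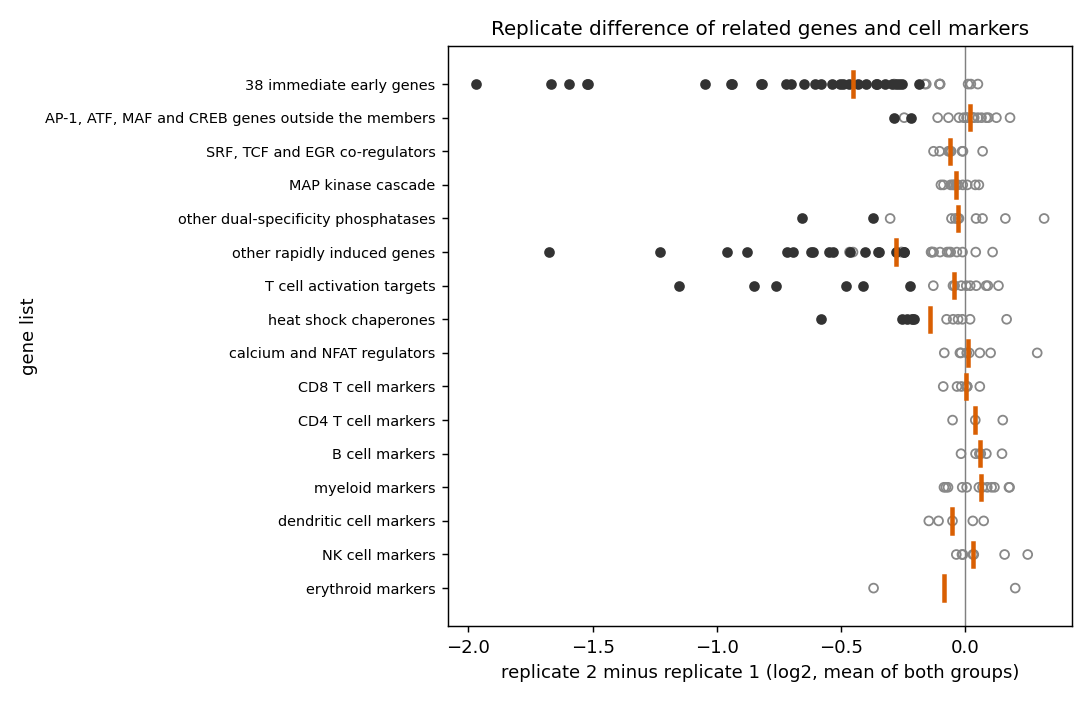
Each point is 1 gene, placed by its replicate 2 minus replicate 1 difference (log2, mean of both cell types) in the row of its list; filled points passed the limma test and the orange bar is the median of the list. The medians were -0.45 for the 38 immediate early genes and -0.28 for other rapidly induced genes, and no gene of a cell marker list passed.

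Cell markers and RNA quality were read beside this replicate difference. No marker of CD8 T cells (7 measured), CD4 T cells (3), B cells (6), myeloid cells (12), dendritic cells (5), NK cells (7) or erythroid cells (2) passed the replicate test by limma, and 4 of these 42 had an unadjusted p under 0.05 (Csf1r, C1qc, Ncr1 and Alas2). The summed intensity of the myeloid list was 15591 and 11172 on replicate 1 and 17031 and 11231 on replicate 2 (Ly49+ then Ly49-), and that of the CD8 list 117488 and 117733 against 118364 and 116076. The myeloid marker Itgam, the B cell factor Pax5 and the NK receptor Ncr1 read below the highest bacterial control. The ratio of 3' to 5' probe sets of Actb was 1.26 and 1.37 on replicate 1 and 1.29 and 1.34 on replicate 2. A control for the 5' end of 18S rRNA, the RNA of the small ribosomal subunit, was at 878 and 471 on replicate 1 and 669 and 339 on replicate 2, lower on replicate 2 in both cell types and higher in Ly49+ cells in both numbers. The control for its middle part read 16035 and 17085 against 15592 and 13373. The part of these readings in the replicate difference was not tested. Whatever the replicate number stands for cannot be told apart from the number itself.

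The second comparison asks whether Ly49+ and Ly49- cells differ in these genes. No member passed in the test of the groups (0 of 38 by limma with group as the only term, where 3.97% of all genes passed, 1.93% higher and 2.04% lower in Ly49+ cells), with adjusted p between 0.13 and 0.98. At an unadjusted p under 0.05 there were 5 members (Fosl2, Egr3, Myc, Btg2 and Rgs2), or 13.2% against 18.1% of all genes, all higher in Ly49+ cells. In this test the replicate numbers lie inside the groups, so the differences described above count as spread. A fit that takes the replicate number out of the spread calls some members higher in Ly49+ cells, and it is given among the alternatives in processing because the labels do not say what a shared number means. The standard error of Nr4a1 was 0.54 on the log2 scale in the test of the groups and 0.05 in that of the replicate numbers.

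Within each replicate number the members read slightly higher in Ly49+ cells. The median log2 difference (Ly49+ minus Ly49-) was 0.14 in replicate 1, with 34 of 38 higher, and 0.10 in replicate 2, with 27 higher. Over all genes the medians were -0.04 and -0.04, with 35.2% and 39.3% higher. In both numbers alike 26 members (68.4%) were higher, against 18.8% of all genes, and 3 (Fosl1, Ier3 and Gadd45g) were lower, against 44.2%. With 1 array on each side these differences have no test.

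Atf3 was the 1 member that was at least 1.5-fold higher in Ly49+ cells in both numbers, as were 0.912% of all genes. It was 2.51-fold higher in replicate 1 (1249 against 487) and 2.78-fold in replicate 2 (324 against 106). The mean difference was 1.40 ± 0.68 SE (adjusted p = 0.32), and the groups overlapped because Ly49+ replicate 2 lay below Ly49- replicate 1. With 1 array left out, the difference between replicate numbers enters that between groups. The difference of Atf3 was then 0.45 when Ly49+ replicate 1 was dropped and 0.38 when Ly49- replicate 2 was. It was 2.35 when Ly49+ replicate 2 was dropped and 2.42 when Ly49- replicate 1 was. Nr4a2 was 1.48-fold and 1.79-fold higher in Ly49+ cells (adjusted p = 0.58) and Fosb 1.31-fold and 1.55-fold (adjusted p = 0.67), with the same overlap. Egr3 was 1.24-fold and 1.37-fold higher (0.38 ± 0.12, adjusted p = 0.13) and Rgs2 1.16-fold and 1.35-fold (0.32 ± 0.13, adjusted p = 0.25). The other probe set of Egr3, with a mean of 240, differed the other way, by -0.10, so this direction rests on the chosen probe set.

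Between the replicate numbers 9 members changed order: Fos, Jun, Junb, Maff, Nr4a3, Csrnp1, Gadd45b, Dusp2 and Ppp1r15a. Maff was 1.96-fold higher in Ly49+ cells in replicate 1 (677 against 338) and at 146 against 167 in replicate 2. Klf4 and Phlda1 kept their order with unequal differences, Klf4 at a ratio of Ly49+ over Ly49- of 1.01 in replicate 1 and 1.35 in replicate 2, and Phlda1 at 1.34 and 1.01. Egr1 and Jun, with differences between replicate numbers of 1.05 and 0.72 in size on the log2 scale, differed by 0.10 and 0.02 and by 0.10 and -0.01 between the cell types. With 4 arrays, a test of whether the group difference depends on the replicate number has no residual degrees of freedom.

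**Figure D5:**
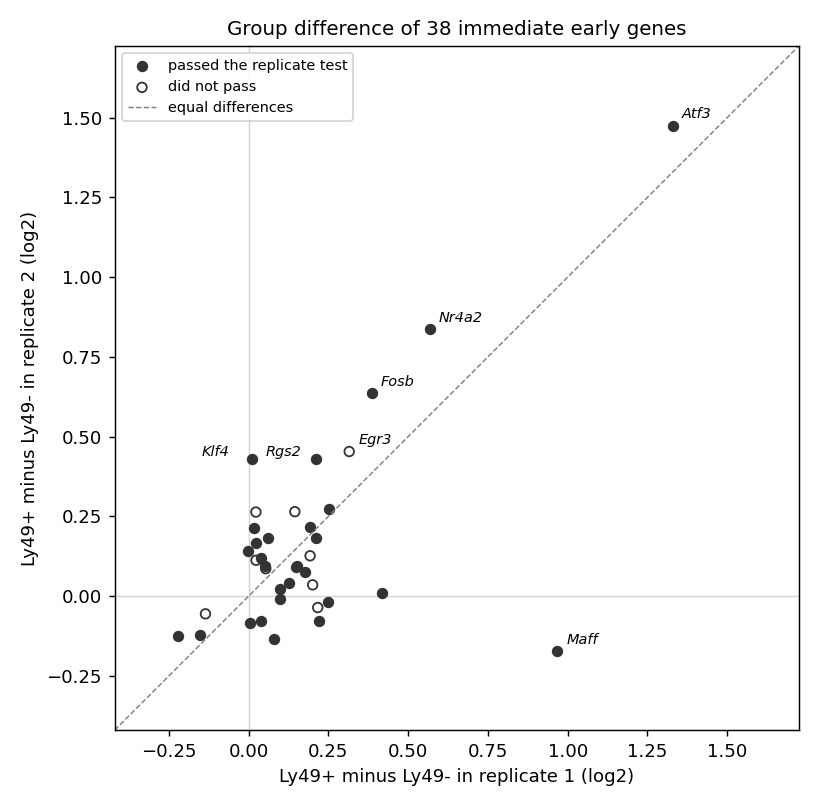
Each point is 1 member, with its Ly49+ minus Ly49- difference (log2) in replicate 1 on the horizontal and in replicate 2 on the vertical axis; symbols and line are as in the plot of replicate differences. Most points crowd near 0 on both axes, Atf3 is at 1.33 and 1.47, and Maff is at 0.97 and -0.17.

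Genes listed as markers of other cell types differed between the groups on these arrays. Of 12 measured myeloid markers 9 were higher and 2 lower in Ly49+ cells, with summed intensities of 15591 and 17031 against 11172 and 11231. Of 6 B cell markers 2 were higher and 1 lower, with sums of 20198 and 21523 against 14116 and 14199. Of 5 dendritic cell markers 1 was higher, with sums of 2573 and 2731 against 2561 and 2421. Of 7 NK cell markers 4 were higher, with sums of 41611 and 41754 against 36794 and 36333, and the defining marker Ncr1 was below the highest bacterial control. Whether these marker readings come from other cells or from the sorted CD8 cells was not tested. Their part in the higher Atf3, Nr4a2 and Fosb readings of Ly49+ cells was not tested either. Of the related lists, Maf (log2 difference 0.58, adjusted p = 0.011), Ccl3 (1.04, adjusted p = 0.012) and Xcl1 (0.43, adjusted p = 0.025) were higher and Dusp10 (-0.24, adjusted p = 0.026) lower in Ly49+ cells, and no gene of the other related lists passed.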

How the data were processed

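RNA of 4 samples, 2 of Ly49+ and 2 of Ly49- CD8 T cells, was measured on arrays, grouped and numbered by their titles. RNeasy extraction preceded biotin labelling, per the labels' protocols. The authors deposited linear intensities per probe set; how these were summarised and scaled was not stated in the sources used here. The platform annotation of 2016 gave 1 gene symbol to 34945 of 45101 probe sets. Of the brightest probe sets of 18193 genes, log2(intensity + 16) was tested without further normalization with limma 3.58.1 in R 4.3.3 (lmFit, eBayes with a trend of the spread, Benjamini-Hochberg adjustment over all genes, threshold 0.05, data.table version 1.17.8). Differences are on that scale and understate those of dim genes. The group test fitted group alone, with 2 residual degrees of freedom and 6.66 prior ones, and the replicate test fitted group and replicate number (1 and 14.3). Precision is limited by the number of arrays. The fits were tested on simulated data with independent noise. For the group fit these data held no difference between replicate numbers, so its behaviour under such a difference was not tested. Of 181 entries in 15 related lists, 162 were measured. Members and lists were chosen with earlier results of these data known. Every member could be named, and of each related list up to 4 genes with the smallest p in either test, plus genes used to sort; other genes named were chosen after their values were seen. Alternatives were another normalization, pseudocount, probe set rule, filter and spread estimate, a replicate block, and leaving out each array.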

Additional observations from a re-analysis of the deposited data

Results flagged for a closer look

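Members whose replicate difference ran opposite ways in the cell types numbered 3, none of which passed the replicate test. Replicate 2 minus replicate 1 was -0.023 in Ly49+ and 0.044 in Ly49- cells for Fosl2, -0.076 and 0.18 for Nr4a3, and -0.061 and 0.10 for Myc, on the log2 scale. With 1 array on each side the difference between the cell types was not tested.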

How the results depend on the processing

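In the replicate comparison every member kept its direction under quantile normalization, pseudocounts of 1 and 64, brighter genes alone, no probe sets open to cross-hybridisation and a robust spread, and 28 to 32 were lower. With the mean of all probe sets Jund (0.037) and Nr4a3 (-0.050) turned, neither of them past the threshold, 25 were lower, and the member medians were -0.40 in Ly49+ and -0.43 in Ly49- cells; with quantile normalization the Ly49- median was -0.44. Genes higher on replicate 2 numbered 79 with quantile normalization, 34 among brighter genes, 2 with the mean of probe sets and 22 at an adjusted p under 0.1. Without a trend of the spread 5 members and 16 genes were lower on replicate 2 and 0 higher, and 218 genes were higher and 152 lower in Ly49+ cells. Without the group term 4 members and 15 genes were lower on replicate 2 and 0 higher. Leaving out 1 array as well gave 8 members, 19 genes lower and 2 genes higher when Ly49+ replicate 1 was dropped, and 15, 37 and 1 when Ly49- replicate 1 was. Dropping Ly49+ replicate 2 gave 4, 8 and 0, and dropping Ly49- replicate 2 gave 3, 9 and 0. Fosl2 was -0.086, Nr4a3 -0.058 and Myc -0.079 with Ly49- replicate 1 dropped, and Fosl2 was -0.053 with Ly49+ replicate 2 dropped. With the group term kept, leaving out an array leaves no residual degrees of freedom and gives a value with no test. The cause of these shifts was not tested.

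In the comparison of groups, 749 genes were lower in Ly49+ cells at an adjusted p under 0.1. Junb turned with quantile normalization (0.0082), and Fosl1 (0.053), Jund (-0.11) and Csrnp1 (-0.062) with the mean of probe sets, none past the threshold. With 1 array left out, 72 to 184 genes were higher and 28 to 103 lower, with 0 members, and the lone sample is assumed to vary like the other group. The difference between replicate numbers then enters that between groups, and these members changed sign, with log2 differences of Fos -0.11 to 0.25, Fosb -0.31 to 1.33, Jun -0.34 to 0.43, Junb -0.34 to 0.30, Maff -0.65 to 1.44, Egr1 -0.48 to 0.60, Egr2 -0.036 to 0.44, Nr4a1 -0.54 to 1.06, Nr4a2 -0.20 to 1.60, Klf4 -0.36 to 0.80, Klf6 -0.033 to 0.19, Klf10 -0.14 to 0.31, Csrnp1 -0.25 to 0.48, Ier2 -0.14 to 0.38, Ier3 -0.28 to 0.0048, Ier5 -0.12 to 0.26, Btg1 -0.089 to 0.28, Gadd45a -0.31 to 0.56, Gadd45b -0.43 to 0.38, Dusp1 -0.16 to 0.40, Dusp2 -0.33 to 0.47, Ppp1r15a -0.23 to 0.14, Phlda1 -0.36 to 0.79, Zfp36 -0.16 to 0.40, Zfp36l2 -0.0053 to 0.14, Cd69 -0.15 to 0.38, Rgs1 -0.22 to 0.61. Among members that kept their sign, Atf3 ran from 0.38 to 2.42, Egr3 from 0.21 to 0.56 and Rgs2 from 0.090 to 0.55.

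The labels do not say whether equal replicate numbers pair the samples, and there are fewer than 3 pairs. Over all genes the replicate differences of the cell types had a correlation of 0.25. The second principal component (24.8% of the variance, after 60.3% for the groups) separated the numbers. What equal numbers share was not tested. With the replicate number as a block (replicate block), 618 genes were higher and 915 lower in Ly49+ cells, and 8 members were higher by limma: Atf3 (adjusted p = 3.4e-07), Nr4a2 (3.7e-06), Fosb (1.9e-05), Rgs2 (7.4e-04), Egr3 (0.0032), Nr4a1 (0.0050), Rgs1 (0.0054) and Btg2 (0.0060). These are readings of the brightest probe sets, and the other probe set of Egr3 was lower in Ly49+ cells (-0.10).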
